A study of Camelina sativa with 12 samples.

Results

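RD26 (RESPONSIVE TO DESICCATION 26, also ANAC072) is a NAC transcription factor, and *C. sativa*, a hexaploid oilseed, carries it as 3 homeologues, the copies of 1 gene on its related subgenomes. They were taken by identifier, Csa12g023460, Csa11g016750 and Csa10g015440, the genes that the study named as RD26 among those less expressed with *P. migulae* 8R6 than in the control. They are 3 of 89418 genes in the table, and all 3 were among the 56932 genes with enough counts to be tested. They were thus chosen by their measured fold change of *P. migulae* 8R6 against the control, and their values in that comparison are given as a description without a test.

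In *A. thaliana*, RD26 is induced by desiccation, high salt and the stress hormone abscisic acid (ABA), acts as an activator in ABA-dependent gene expression and promotes leaf senescence. Its closest relatives are NAC019 and NAC055. ABA made through NCED3, the rate-limiting step of its synthesis, acts through receptors that block clade A type 2C protein phosphatases (PP2Cs) such as HAI1 and ABI2, and the genes for these negative regulators are themselves induced by ABA.

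The 4 groups were compared under salt only, in bulk RNA from shoots of 28-day-old plants that had received 192 mM NaCl (EC 15 dS m-1) for 21 days. All were of the DH55 background. In the *P. migulae* 8R6 group, non-transgenic plants grew in soil inoculated with a root-colonizing bacterium that makes ACC deaminase, the enzyme that breaks down the precursor of ethylene. The *rolD::acdS* and *35S::acdS* groups carried the ACC deaminase gene *acdS* of *Pseudomonas* sp. UW4, driven by the root-preferred *rolD* promoter of *Agrobacterium rhizogenes*, which is not entirely root-specific, or by a doubled CaMV *35S* promoter active in most tissues. The control was non-transgenic DH55 in soil given buffer, which the transgenic plants received too. Each *acdS* group was 1 single-insert line, so promoter and line cannot be told apart, and the table holds *C. sativa* identifiers only, so *acdS* itself was not analysed here. Each group had 3 biological replicates, and no unsalted libraries were among the 12.

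Library totals lay between 10520627 and 23587748 counts, and library size was removed by expressing each gene as CPM (counts scaled to a common library size) after TMM scaling. The Pearson correlation of log2 CPM between libraries was 0.927 to 0.984 over the 66 pairs. Control replicate 2 stood apart from the other control libraries in RD26, so values against the control are also given without it. Beside the label of green shoot tissue, 4 photosystem genes were looked at, none of which was at 0 in any library. The study states that roots express photosynthetic genes too, so this cannot tell shoot from root. Photosystem I subunit D-1 (Csa08g050560) had between 27.5 and 75.9 CPM, and the light-harvesting gene Csa01g001010 only 0.154 to 3.23 CPM. The study named these 4 as less down-regulated or induced with *P. migulae* 8R6 on these libraries, so their direction there is not independent evidence. In *35S::acdS* plants 3 of 4 had fitted values above the control, and Csa01g001010 was below it (log2 fold change -1.69). That value rests on few counts, with 0.154, 0.178 and 0.433 CPM in *35S::acdS* and 0.745, 1.07 and 0.582 CPM in control libraries. The largest count of Csa01g001010 in any library was 60. With *P. migulae* 8R6 the fitted values of all 4 were above the control. Of the 4, Csa08g050560 was the only gene of the whole table called in that comparison (log2 fold change 1.27, adjusted p = 0.0167, edgeR). Their summed level was 116 to 135 CPM in *P. migulae* 8R6 plants, 55.7 to 73.5 CPM in *rolD::acdS* plants, 40.1 to 59.0 CPM in *35S::acdS* plants and 38.8 to 52.5 CPM in the control. Across the 12 libraries these genes correlated with RD26 at a median r of -0.67. Both sets were chosen on *P. migulae* 8R6 against the control, in opposite directions, so a negative r follows in part from the choice. For deviations from the group means the median r was -0.10 (range -0.56 to 0.29). The part of the photosystem genes in the RD26 values was not tested, and in bulk tissue fewer cells of a type and less RNA per cell cannot be told apart.

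All 3 RD26 homeologues were least abundant with *P. migulae* 8R6, followed by the *rolD::acdS* line, the *35S::acdS* line and the control. Csa12g023460 had 24.6, 18.65 and 7.79 CPM in the 3 *P. migulae* 8R6 libraries, 44.0, 19.6 and 32.7 CPM in the *rolD::acdS* libraries, 73.0, 53.75 and 34.0 CPM in the *35S::acdS* libraries, and 89.5, 28.3 and 68.5 CPM in the control libraries. Csa11g016750 had 17.9, 12.4 and 6.28 CPM with *P. migulae* 8R6, 32.1, 10.1 and 21.0 CPM in the *rolD::acdS* line, 41.9, 37.6 and 19.7 CPM in the *35S::acdS* line, and 69.5, 18.3 and 50.7 CPM in the control. Csa10g015440 had 26.8, 18.1 and 9.59 CPM with *P. migulae* 8R6, 53.5, 20.6 and 38.7 CPM in the *rolD::acdS* line, 59.4, 51.1 and 36.4 CPM in the *35S::acdS* line, and 119.9, 31.95 and 76.6 CPM in the control. For each homeologue the highest *P. migulae* 8R6 library was below the lowest control library, whereas both *acdS* lines overlapped the control. Replicate 1 was the highest library of every group for every homeologue. The smallest count behind any of these values was 111 and the largest 1843, and the spread within groups was wider than counting error. The 3 homeologues together had 23.65 CPM in *P. migulae* 8R6 replicate 3, for example, with a 95% Poisson interval of 21.6 to 25.9 CPM, against 69.3 CPM in replicate 1 of the same group.

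**Figure D1:**
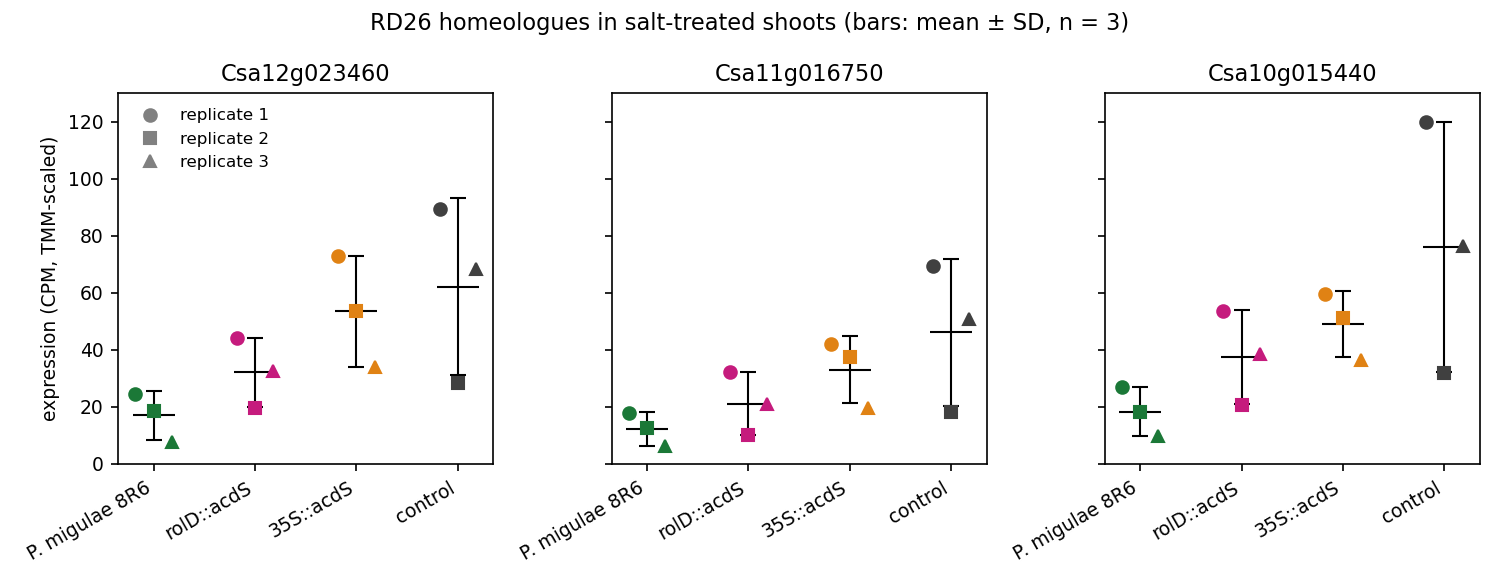
Expression of the 3 RD26 homeologues (TMM-scaled CPM, linear axis from 0) in each library of the 4 salt-treated groups; symbols give the replicate number, horizontal lines the group mean and bars the SD (n = 3). All *P. migulae* 8R6 libraries lie below all control libraries, and control replicate 2 (28.3, 18.3 and 31.95 CPM) lies far below the other 2 control libraries in each panel.

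Summed over the 3 homeologues, RD26 averaged 47.4 ± 22.9 CPM with *P. migulae* 8R6, 90.8 ± 39.6 CPM in the *rolD::acdS* line, 136 ± 42.5 CPM in the *35S::acdS* line and 184 ± 101 CPM in the control (SD, n = 3 each). Relative to the control mean, these were ratios of 0.257 for *P. migulae* 8R6, 0.492 for *rolD::acdS* and 0.735 for *35S::acdS*. Neighbours in this order overlapped. *P. migulae* 8R6 (23.65 to 69.3 CPM) overlapped *rolD::acdS* (50.4 to 129.6 CPM), which overlapped *35S::acdS* (90.2 to 174 CPM), which in turn overlapped the control (78.55 to 279 CPM). The *P. migulae* 8R6 libraries lay below all *35S::acdS* and all control libraries. Libraries of *P. migulae* 8R6 lay entirely below those of *35S::acdS* for 12.4% of all genes tested. The ratio of the highest to the lowest library within a group was 2.93 in *P. migulae* 8R6, 2.57 in *rolD::acdS*, 1.93 in *35S::acdS* and 3.55 in the control.

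The comparison of *P. migulae* 8R6 with the control gave fitted log2 fold changes of -1.87 (SE 0.48) for Csa12g023460, -1.92 (SE 0.53) for Csa11g016750 and -2.06 (SE 0.48) for Csa10g015440. A gene was taken as differentially-expressed when its log2 fold change was beyond 1 in either direction with an adjusted p up to 0.05, which held for 0 of 3 homeologues and 0.00176% of all genes tested (1 gene). For 3 of 3 the libraries did not overlap, where 7.03% of all genes tested had all *P. migulae* 8R6 libraries below the control. A log2 fold change below 0 was seen for 3 of 3 homeologues and 49.5% of all genes tested. These values chose the genes, so nothing was read from the counts.

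Both *acdS* lines were set against the same 3 control libraries, and so their values are not independent of that choice. Log2 fold changes of *rolD::acdS* plants against the control were -0.95 (SE 0.47) for Csa12g023460, -1.11 (SE 0.51) for Csa11g016750 and -1.01 (SE 0.47) for Csa10g015440. Those of *35S::acdS* plants were -0.21 (SE 0.46) for Csa12g023460, -0.48 (SE 0.51) for Csa11g016750 and -0.63 (SE 0.46) for Csa10g015440. Fitted values were thus below the control for 3 of 3 homeologues in either line, where 48.7% of all genes tested were in *rolD::acdS* and 49.7% in *35S::acdS* plants. None of the 3 was differentially-expressed in either line by edgeR's quasi-likelihood test, which called 0.0% of all genes tested in both comparisons. The libraries overlapped the control for 3 of 3 in both lines, where 7.23% of all genes tested lay entirely below it in *rolD::acdS* and 7.32% in *35S::acdS* plants. An unadjusted p under 0.05 was found for 4755 genes in the *rolD::acdS* line and 4421 genes in the *35S::acdS* line, and DESeq2 called 164 genes in *rolD::acdS* and 19 in *35S::acdS* plants.

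**Figure D2:**
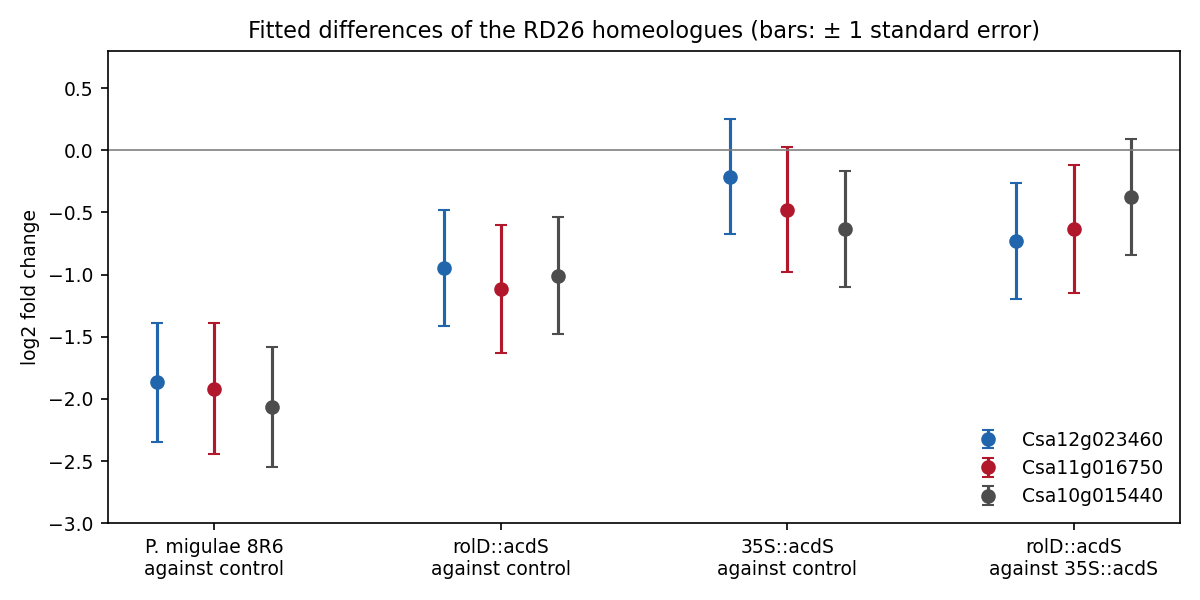
Fitted log2 fold changes of the 3 RD26 homeologues in the 4 comparisons, with bars of 1 standard error from the edgeR fit over all 12 libraries (n = 3 per group). The *P. migulae* 8R6 values lie at -1.87 to -2.06, those of the *rolD::acdS* line near -1 and those of the *35S::acdS* line between -0.21 and -0.63, while *rolD::acdS* against *35S::acdS* lies between -0.38 and -0.73.

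A comparison that shares no library with the choice of the genes is that of the *acdS* lines with each other. All 3 homeologues had lower fitted values in the *rolD::acdS* line than in the *35S::acdS* line, as did 49.6% of all genes tested, and the difference did not pass the test for any of them. For Csa12g023460 the log2 fold change was -0.73 (interval of 2 SE on each side -1.67 to 0.20; adjusted p = 0.505, edgeR's quasi-likelihood test). For Csa11g016750 it was -0.64 (-1.66 to 0.39; adjusted p = 0.598, edgeR). For Csa10g015440 it was -0.38 (-1.31 to 0.56; adjusted p = 0.747, edgeR). These intervals include no difference and also a level lower by more than 1 log2 unit in the *rolD::acdS* line. Their SE came from the fit over all 12 libraries, among them those of the choice. With the 6 libraries of the 2 lines alone, Csa12g023460 had -0.73 (SE 0.31, adjusted p = 0.318, edgeR). Csa11g016750 then had -0.63 (SE 0.37) and Csa10g015440 -0.37 (SE 0.30). For Csa12g023460 2 SE then left out no difference, while the adjusted test was still not passed. Thus 0 of 3 were differentially-expressed, and 0.0% of all genes tested were in this comparison. The edgeR test gave an unadjusted p under 0.05 for 0 of the 3 homeologues and 7320 of all genes, and DESeq2 called 115 genes. The summed level gave a difference of -0.63 on the log2 scale (exact two-sided permutation test, p = 0.3, where 3 libraries against 3 cannot go below 0.1). The *rolD::acdS* libraries overlapped the *35S::acdS* libraries for 3 of 3 homeologues, and lay entirely below them for 10.0% of all genes tested.

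The control values of RD26 were split by library. Control replicate 2 had less than 50% of the level of each of the other control libraries for 3 of 3 homeologues, which was so for 2.38% of all genes tested. It was the lowest control library for 12 of 12 genes of ABA synthesis and signalling, 5 of 6 NAC genes of the list that holds NAC019 and NAC055, and 0 of 4 photosystem genes, where 37.7% of all genes tested had their lowest control value there. In the *35S::acdS* line, 3 of 3 libraries were above control replicate 2 for each homeologue, and in the *rolD::acdS* line 2 of 3 were. Without this library, the mean log2 fold change of the 3 homeologues was -2.31 in place of -1.95 with *P. migulae* 8R6, -1.39 in place of -1.02 in the *rolD::acdS* line and -0.81 in place of -0.44 in the *35S::acdS* line. All libraries then lay below both remaining controls for 3 of 3 homeologues with *P. migulae* 8R6 (16.4% of all genes tested), for 3 of 3 in the *rolD::acdS* line (16.6% of all genes) and for 2 of 3 in the *35S::acdS* line (11.2% of all genes). The library was left out for its low RD26 values, so lower fold changes and less overlap follow from that choice. The shares of all genes were not picked in this way, so nothing was read from these counts. Conversely, without control replicate 1 the mean log2 fold change was -1.54 with *P. migulae* 8R6, -0.61 in the *rolD::acdS* line and -0.03 in the *35S::acdS* line. The log2 fold change of Csa12g023460 in the *35S::acdS* line was then 0.13, and without *35S::acdS* replicate 3 it was 0.02. The sign for this homeologue in the *35S::acdS* line therefore rested on single libraries.

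The homeologues varied together. The correlation of log2 CPM between any pair of them was 0.981 to 0.984 over the 12 libraries, and 0.976 to 0.987 for deviations from the group means. The handling of reads that map equally well to several homeologues was not given in the sources used here, and shared reads would raise this likeness. Their shares of the summed RD26 counts, which do not depend on library size, ranged over libraries from 32.1% to 41.9% for Csa12g023460, 20.1% to 26.5% for Csa11g016750 and 34.1% to 43.0% for Csa10g015440, while the sum varied between 23.65 and 279 CPM. Csa12g023460 took 35.4 ± 2.50% of the counts with *P. migulae* 8R6, 36.1 ± 2.58% in *rolD::acdS* plants, 39.1 ± 2.39% in *35S::acdS* plants and 34.4 ± 2.03% in the control (SD, n = 3 each). Csa11g016750 took 25.9 ± 0.673% with *P. migulae* 8R6, 22.5 ± 2.34% in *rolD::acdS* plants, 24.1 ± 2.25% in *35S::acdS* plants and 24.7 ± 1.30% in the control. Csa10g015440 took 38.7 ± 1.83% with *P. migulae* 8R6, 41.4 ± 0.484% in *rolD::acdS* plants, 36.8 ± 3.25% in *35S::acdS* plants and 40.9 ± 1.95% in the control.

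A difference between the 4 groups in these shares was not found (exact permutation test over all 369600 assignments of the libraries, p = 0.173 for Csa12g023460, p = 0.206 for Csa11g016750 and p = 0.0857 for Csa10g015440; adjusted p = 0.206 for each over the 3 tests). Without *35S::acdS* replicate 3, the p for Csa10g015440 was 0.0183 by the same exact test before adjustment. In the *35S::acdS* line this homeologue held 34.1% of the counts in replicate 1, its lowest share of any library, and Csa12g023460 held 41.9%, its highest. The shares of a library are parts of 1 sum, so these values and the 3 tests are not independent of each other. Csa11g016750 had the fewest counts of the 3 in 12 of 12 libraries. Csa10g015440 had the most in 9 libraries and Csa12g023460 in the other 3. Gene lengths were not used here, so the order of the homeologues in counts is not an order of transcript levels. Within groups, shares varied about as much as counting allows with *P. migulae* 8R6 (chi-square per degree of freedom 0.854) and more than that in *rolD::acdS* (2.11), *35S::acdS* (5.41) and control plants (4.52). This measure rises with counts, and the summed RD26 counts were 486 to 1617 with *P. migulae* 8R6 and 1244 to 4712 in the control. It therefore does not show steadier shares with *P. migulae* 8R6. The SD of the Csa12g023460 share was 2.50% there and 2.03% in the control.

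**Figure D3:**
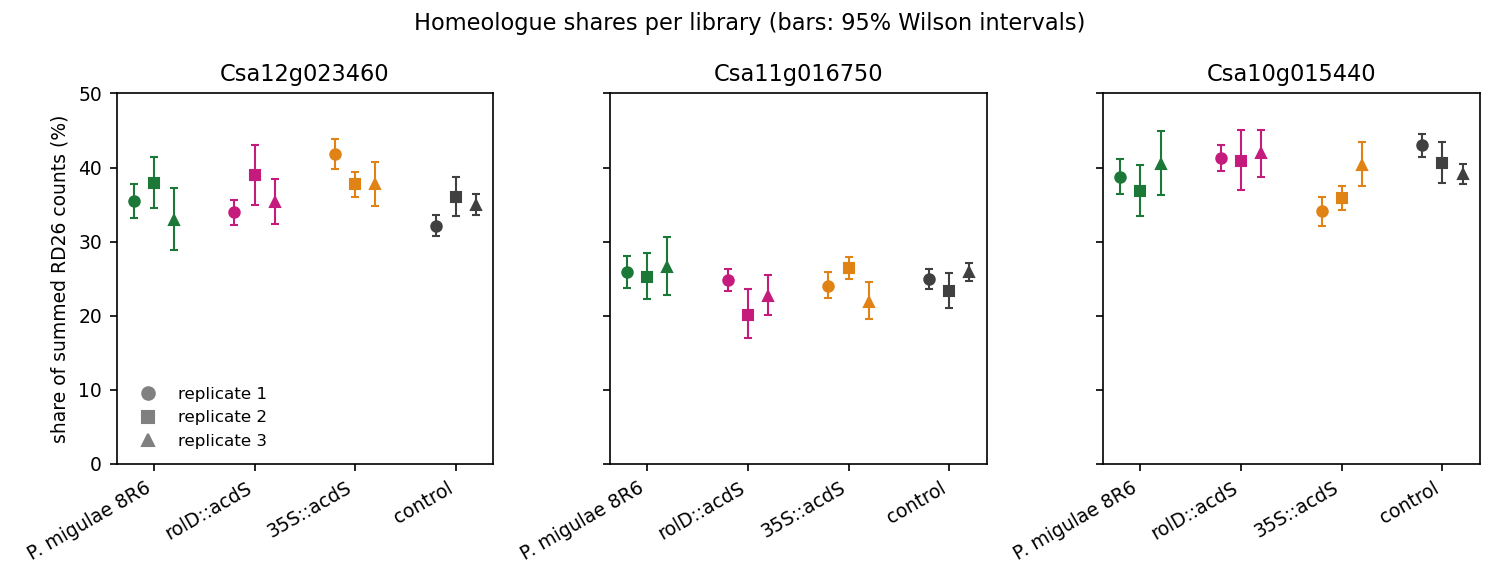
Share of each RD26 homeologue in the summed RD26 counts of a library (%), with 95% Wilson intervals that cover counting error only; symbols give the replicate number. The shares stay between 20.1% and 43.0% with Csa11g016750 lowest in every library. Csa10g015440 has low shares in *35S::acdS* replicates 1 and 2, and Csa12g023460 has a high share in replicate 1. The shares of a library are parts of 1 sum, so a low share of 1 homeologue means higher shares of the others.

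The NAC genes listed beside RD26 were 3 NAC019, 2 NAC055 and 1 NAC102 homeologues, and like all lists below it was drawn from genes that the study chose on these libraries, so the direction of the list is not independent evidence. Of the 6, 0 were differentially-expressed in any comparison, and 6 of 6 had fitted values below the control in each ACC deaminase group. Their median log2 fold change was -1.69 for *P. migulae* 8R6, -0.92 for *rolD::acdS* and -0.66 for *35S::acdS* plants. The median over all genes tested was between 0.00 and 0.01 in each. NAC019, which in *A. thaliana* acts in ABA and jasmonate responses, had a summed level over its 3 homeologues of 71.8, 64.9 and 33.9 CPM with *P. migulae* 8R6, 126, 72.8 and 118 CPM in the *rolD::acdS* line, 167, 181.5 and 122 CPM in the *35S::acdS* line, and 274, 115 and 207.5 CPM in the control. All *P. migulae* 8R6 libraries were below all control libraries (7.03% of all genes tested), and control replicate 2 was again the lowest of the control. The summed NAC019 level was between 0.959 and 1.47 times that of RD26 in all 12 libraries, and these ratios overlapped between all 4 groups.

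NAC102 (Csa18g037380) had 21.9, 24.8 and 22.0 CPM in *P. migulae* 8R6 plants, 30.6, 25.0 and 20.4 CPM in *rolD::acdS* plants, 24.3, 24.4 and 16.5 CPM in *35S::acdS* plants, and 49.4, 41.1 and 36.8 CPM in the control. Its libraries in all 3 ACC deaminase groups lay below the control without overlap. Taken group by group, this held for 7.03% of all genes tested with *P. migulae* 8R6, 7.23% in *rolD::acdS* and 7.32% in *35S::acdS* plants. The correlation of NAC102 with RD26 over the 12 libraries was 0.511, the lowest of the list. The other NAC genes that the study named (NAC036, NAC042, NAC043, NAC067, NAC069 and NAC087) were lower than the control in fitted value for 6 of 6 in each group, with 0 differentially-expressed. Their medians came in another order than those of RD26, at -0.68 for *P. migulae* 8R6, -1.56 for *rolD::acdS* and -1.05 for *35S::acdS* plants. Their median correlation with RD26 was 0.295. The study named these genes from the *acdS* lines and RD26 from *P. migulae* 8R6. The other order therefore follows in part from the choice, and the correlation is not independent of it.

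A list of 12 genes of ABA synthesis and signalling was set beside RD26, with 2 homeologues of NCED3 and 10 genes for PP2Cs (HAI1, HAI2, ABI2, PP2CA and PP2C5). Fitted values were below the control for 12 of 12 in *P. migulae* 8R6 plants (median log2 fold change -1.69), 12 of 12 in *rolD::acdS* plants (-0.82) and 10 of 12 in *35S::acdS* plants (-0.56), and 0 of 12 were differentially-expressed in each. NCED3, summed over 2 homeologues, had 22.9, 18.3 and 14.8 CPM with *P. migulae* 8R6, 62.0, 24.6 and 35.4 CPM in the *rolD::acdS* line, 52.6, 54.9 and 25.5 CPM in the *35S::acdS* line, and 101, 31.45 and 55.0 CPM in the control. The *P. migulae* 8R6 libraries were below all others, and both *acdS* lines overlapped the control. HAI1, a PP2C that is strongly induced by ABA, had a sum over 3 homeologues of 118, 103 and 26.1 CPM with *P. migulae* 8R6, 202, 123 and 211 CPM in the *rolD::acdS* line, 405, 349 and 163 CPM in the *35S::acdS* line, and 383.5, 212 and 287 CPM in the control. Here too the *P. migulae* 8R6 libraries lay below all others, the nearest being *rolD::acdS* replicate 2 (123 against 118 CPM). Replicate 3 was the lowest of the *P. migulae* 8R6 group, and the *35S::acdS* libraries spread over the whole range of the control. The share of all genes tested whose *P. migulae* 8R6 libraries lay below all others was not determined.

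**Figure D4:**
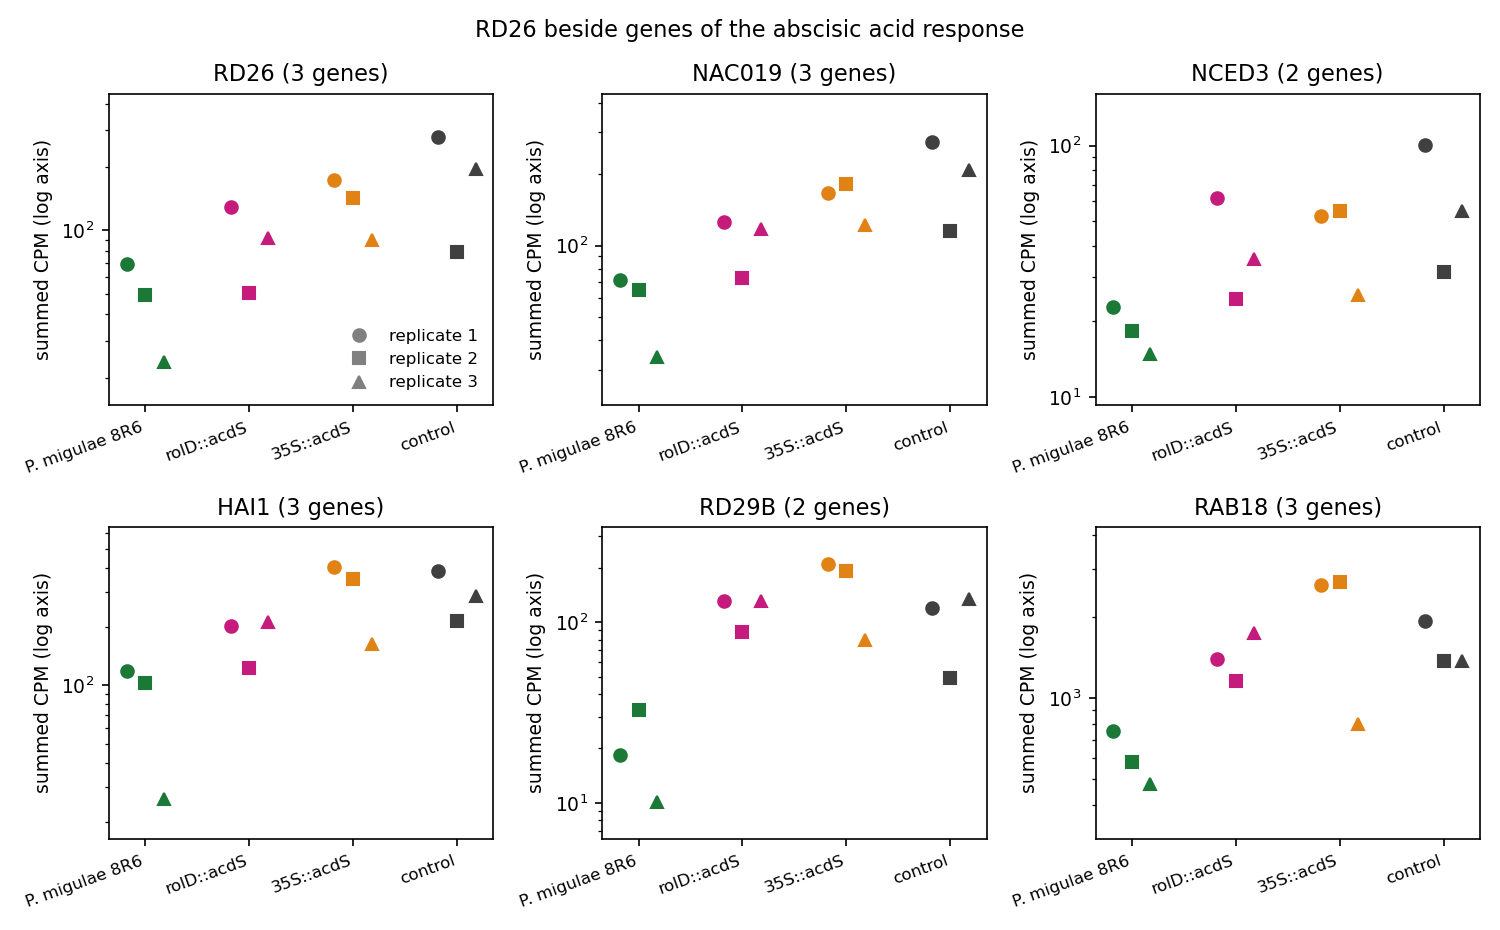
Summed CPM (log axis) of RD26, NAC019, NCED3, HAI1, RD29B and RAB18 homeologues in each of the 12 libraries, with symbols for the replicate number. The *P. migulae* 8R6 libraries are the lowest for NAC019, NCED3, HAI1, RD29B and RAB18, and for RD26 their highest library (69.3 CPM) is above the lowest *rolD::acdS* library (50.4 CPM). RD29B and RAB18 in *35S::acdS* replicates 1 and 2 exceed all control libraries. The share of all genes tested with the *P. migulae* 8R6 libraries lowest was not determined.

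RD29B and the dehydrin RAB18, desiccation genes that ABA induces, correlated with RD26 at a median r of 0.814 over 5 homeologues, beside 0.897 for the 12 ABA genes. Most of these genes were, like RD26, named by the study as lower with *P. migulae* 8R6, so a positive r follows in part from the choice. For deviations from the group means the median r was 0.755 (range 0.407 to 0.810) for the desiccation genes. It was 0.815 (range 0.418 to 0.955) for the ABA genes. Fitted values of the desiccation genes were below the control for 5 of 5 in *P. migulae* 8R6 plants (median log2 fold change -1.40), 3 of 5 in *rolD::acdS* plants (-0.08) and 0 of 5 in *35S::acdS* plants (0.62), with 0 of 5 differentially-expressed in each. RD29B, a hydrophilic protein gene with ABA-responsive elements in its *A. thaliana* promoter, summed to 18.4, 32.6 and 10.1 CPM over 2 homeologues with *P. migulae* 8R6, 131, 88.3 and 132 CPM in the *rolD::acdS* line, 210.0, 191 and 79.9 CPM in the *35S::acdS* line, and 120, 48.9 and 135 CPM in the control. Both *acdS* lines overlapped the control, and all *P. migulae* 8R6 libraries were below every other library. The share of all genes tested for which the latter holds was not determined.

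Set against RD26 in the same library, RD29B separated the *acdS* lines from the non-transgenic groups. The ratio of summed RD29B to summed RD26 CPM was 1.01, 1.75 and 1.43 in the *rolD::acdS* libraries and 1.21, 1.34 and 0.886 in the *35S::acdS* libraries. It was 0.266, 0.663 and 0.428 with *P. migulae* 8R6, and 0.429, 0.622 and 0.690 in the control. The 6 libraries of the *acdS* lines lay above the 6 non-transgenic libraries, and the *P. migulae* 8R6 ratios overlapped those of the control. This ratio was chosen after its values were seen, so it was not tested. The share of all genes whose ratio to RD26 separates the groups in this way was not determined. For RAB18 the ratio to RD26 overlapped between all groups (10.8 to 22.9 in *rolD::acdS*, 8.91 to 18.9 in *35S::acdS*, 10.9 to 20.3 with *P. migulae* 8R6 and 6.91 to 17.4 in the control).

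**Figure D5:**
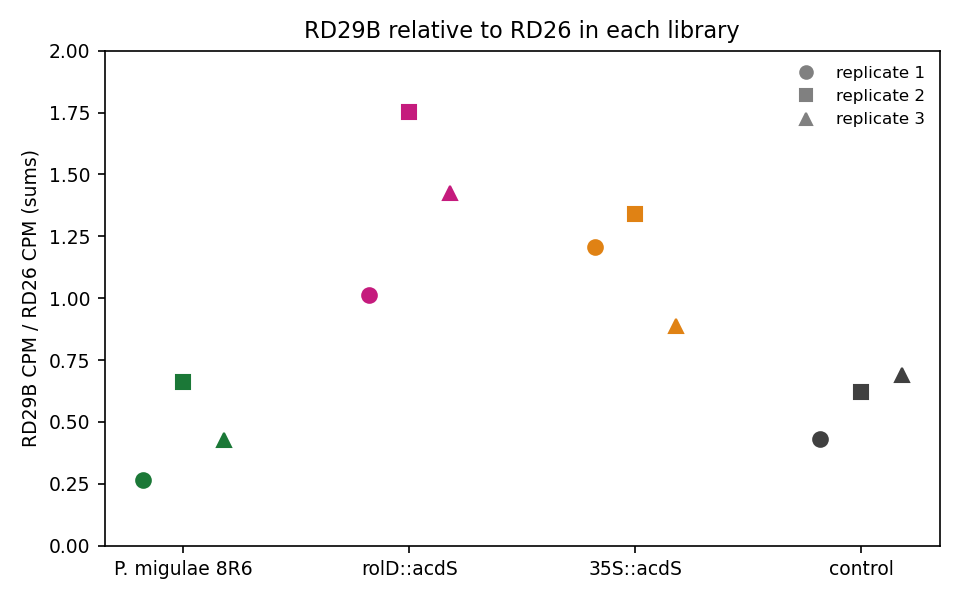
Ratio of summed RD29B CPM to summed RD26 CPM in each library (linear axis from 0), with symbols for the replicate number. The 6 libraries of the *rolD::acdS* and *35S::acdS* lines (0.886 to 1.75) lie above the 6 libraries of *P. migulae* 8R6 and control plants (0.266 to 0.690).

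LEA5 (SAG21), a late embryogenesis abundant protein linked with leaf senescence in *A. thaliana*, was measured as 3 homeologues. They had fitted values below the control for 3 of 3 in every group, with medians of -0.40 for *P. migulae* 8R6, -1.31 for *rolD::acdS* and -0.66 for *35S::acdS* plants, and 0 of 3 differentially-expressed. Their median was furthest from the control in *rolD::acdS* plants, where that of RD26 was furthest with *P. migulae* 8R6, and their median correlation with RD26 was 0.475. The study named these LEA5 genes from the *rolD::acdS* line and RD26 from *P. migulae* 8R6, so this difference follows in part from the choice. Between *rolD::acdS* and *35S::acdS* plants, the medians were -0.55 for the 6 NAC genes of the first list, -0.27 for the 12 ABA genes, -0.51 for the 5 desiccation genes and -0.65 for LEA5, with 0 differentially-expressed in any of these lists.

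The genes most like RD26 across the series were ranked by the correlation of log2(CPM + 0.5) with the RD26 sum over the 12 libraries, among the 56929 other genes tested, whose median r was -0.02. A correlation of at least 0.95 was found for 19 genes. The first 10 were Csa03g019130 (r = 0.982), MYB74 (Csa02g009840, 0.981), NAC019 (Csa14g063210, 0.980), Csa15g008110 (0.979), NAC019 (Csa17g093080, 0.977), Csa17g092570 (0.974), NCED3 (Csa15g018820, 0.971), EID1-like 3 (Csa05g095400, 0.964), a second MYB74 (Csa13g053050, 0.962) and a RING/U-box protein annotated as a probable XERICO E3 ubiquitin ligase (Csa16g027830, 0.962). The correlations rest on 12 libraries in 4 groups that share tissue and salt treatment.

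MYB74 encodes an R2R3-MYB factor induced by salt and drought in *A. thaliana*. Its homeologue Csa02g009840 ranged from 1.02 to 20.9 CPM, with log2 fold changes against the control of -2.49 for *P. migulae* 8R6, -0.90 for *rolD::acdS* and -0.49 for *35S::acdS* plants. Csa03g019130, the first in rank, ranged only from 31.5 to 52.6 CPM, with log2 fold changes of -0.42 for *P. migulae* 8R6, -0.21 for *rolD::acdS* and -0.09 for *35S::acdS* plants. Its order of groups was therefore that of RD26 with a smaller difference. When the group means were removed, so that the likeness came from replicates within groups, Csa17g092570 (r = 0.985), Csa01g020510 (0.984), Csa13g021000 (0.983), Csa11g018900 (0.979) and Csa09g071520 (0.978) were the closest, and 67 genes had at least 0.95. Csa17g092570, with 2.53 to 18.4 CPM, was in both lists.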

How the data were processed

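RNA from shoots of 12 *C. sativa* samples was sequenced. Per the labels and the study's methods, TruSeq stranded libraries were trimmed with Trimmomatic and mapped with STAR; the counting tool is not given in the sources used here. The authors deposited counts, whole numbers of reads per gene in a table named for CPM. The 56932 genes that reached 0.5 CPM in 3 or more libraries were fitted with edgeR 4.0.16 in R 4.3.3 (TMM, quasi-likelihood, 4 groups in 1 model, no covariates). The p-values were adjusted over these genes by Benjamini-Hochberg, and genes were called with an adjusted p up to 0.05 and a log2 fold change beyond 1 in either direction. The common BCV was 0.189. Alternatives used DESeq2 1.42.0, limma 3.58.1, other filters, scalings and dispersions, a replicate block and each library left out. The script was tested on simulated data.

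The RD26 genes and all lists were chosen with earlier results of these data known. Named genes are the 3 homeologues, the genes of the lists, and the 10 genes with the highest correlation with RD26 (5 for deviations from group means). Gene names come from the study; 0 of 89418 identifiers matched the reference gene table, so no sequences, lengths or coordinates were used. Whole-table totals set depth; intervals of counts and shares cover counting error only.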

Additional observations from a re-analysis of the deposited data

How the results depend on the processing

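The log2 fold changes of the RD26 homeologues and of their sum kept their sign under every alternative run, except that Csa12g023460 in the *35S::acdS* line changed sign without control replicate 1 (0.13) or *35S::acdS* replicate 3 (0.02), and the sum in that line without control replicate 1 (0.08). Moreover, 0 of 3 homeologues were differentially-expressed between *rolD::acdS* and *35S::acdS* plants under any of them. The adjusted p ranged from 0.0625 to 1.0 for Csa12g023460, 0.151 to 1.0 for Csa11g016750 and 0.534 to 1.0 for Csa10g015440 over 15 alternatives of edgeR, DESeq2 and limma fits. Leaving out 1 library moved the mean log2 fold change of the homeologues in a range of -2.34 to -1.54 for *P. migulae* 8R6, -1.40 to -0.61 for *rolD::acdS* and -0.81 to -0.03 for *35S::acdS* plants against the control.

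Counts of differentially-expressed genes over the whole table depended on the method. With *P. migulae* 8R6, 1 gene was called by edgeR's quasi-likelihood test, 4 with library totals in place of TMM, 208 by DESeq2, 0 by limma, 876 and 0 by edgeR's exact test with BCV set to 0.2 and 2, 20 without a filter, 0 with the 6 libraries alone, and 0 to 80 when 1 library was left out (80 without control replicate 2). In the *rolD::acdS* line the counts were 0, against 164 by DESeq2, 1 by limma, 1354 with BCV 0.2, 3 with 6 libraries alone and 0 to 6 with 1 library left out (6 without *rolD::acdS* replicate 1). In the *35S::acdS* line they were 0, against 19 by DESeq2 and 1034 with BCV 0.2. Between *rolD::acdS* and *35S::acdS* they were 0, against 115 by DESeq2, 1 by limma, 1370 with BCV 0.2 and 0 to 1 with 1 library left out (1 without *rolD::acdS* replicate 3). The p for the share of Csa10g015440 was 0.0183 to 0.21 by the exact permutation test with 1 library left out, the lowest without *35S::acdS* replicate 3, 0.116 to 0.451 for Csa12g023460 and 0.0971 to 0.444 for Csa11g016750. The causes of these differences were not tested. Each homeologue had 111 to 1843 counts in a library.

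Samples of the groups share replicate numbers. Over the 18 same-numbered pairs the correlation of deviations from the group means was -0.39 to 0.319 (median 0.126, 10 over 0.1). Differently numbered pairs were not compared, so these values do not settle whether such samples were linked. The main fit did not treat them as pairs. With the replicate number as a block, edgeR called 15 genes with *P. migulae* 8R6 and 0 in the other comparisons. The SE of the homeologues was smaller with the block. For Csa10g015440 it was 0.37 in place of 0.48 with *P. migulae* 8R6 against the control, and 0.36 in place of 0.47 between the *acdS* lines.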
